A study of Homo sapiens with 14 samples.

Results

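Gangliosides and globosides are sugar-bearing lipids of the outer cell membrane. The 10 genes described here encode the glycosyltransferases that build them, and were chosen by name from a list of pathway members. The rule uses no measured value, although the list was drawn up with earlier results of these data known. They were followed in 14 RNA-seq libraries of CHP-134, a MYCN-amplified neuroblastoma cell line. 9 of the 10 were among the 17810 genes of the EGFP and OmoMYC count table, and all 10 were among the 19143 genes of the DMSO and dTAG47 table. B3GALT4 was analysed in the parental cells only. After a filter on low counts, 8 members were tested in each comparison, of 13803 and 14470 genes tested in all.

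2 separate experiments were compared. In the first, CHP-134 cells carried a doxycycline-inducible lentiviral transgene for either enhanced green fluorescent protein (EGFP, n = 3) or OmoMYC (n = 3), a dominant-negative MYC fragment that blocks MYC family proteins. Both engineered lines had been selected with G418 and grown in tetracycline-approved serum, and both received 1 µg/ml doxycycline for 3 days, so doxycycline and the vector were shared by the groups. In the second, parental CHP-134 cells without a transgene, grown in ordinary serum, were given 500 nM dTAG47 (n = 4) or its solvent DMSO (n = 4) for 18 hours. dTAG47 recruits proteins that carry an FKBP12(F36V) tag for degradation. The parental cells had no such tagged protein, and this comparison served the study as a control for the compound. Each inducible line is a single engineered line, so OmoMYC and the line that carries it cannot be told apart.

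The pathway starts with UGCG, which adds glucose to ceramide. B4GALT6, beside its relative B4GALT5, then adds galactose to give lactosylceramide, the last common intermediate. There the branches part: ST3GAL5 adds the first sialic acid and opens the ganglioside branch, whereas A4GALT adds a further galactose and opens the globoside branch, which B3GALNT1 extends. Within gangliosides ST8SIA1 adds the second sialic acid and B4GALNT1 adds N-acetylgalactosamine, and both are needed for the disialoganglioside GD2, a surface antigen abundant on neuroblastoma and the target of therapeutic antibodies. B3GALT4, ST3GAL2 and ST8SIA5 then lengthen the chains to the complex gangliosides typical of nerve cells.

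A total of 28060817 to 38358128 reads per library were assigned to genes in the engineered cells, and 40861430 to 53451641 in the parental cells. Of 11 adrenergic neuroblastoma markers, 9 or 10 exceeded 1 CPM (a count per 1000000 reads of the TMM-scaled library size) in each group, with a summed level of 4038 to 4861 CPM over all libraries. MYCN, the amplified gene, was the highest of them at group means of 2240 to 2859 CPM and made up much of this sum. TH, the enzyme that starts catecholamine synthesis, was the lowest at 0.238 to 0.769 CPM. DBH, a later enzyme of that synthesis, was also low at 0.405 to 1.16 CPM. Marker sums of other cell types differed between some groups, and their part in the results was not tested. The sum of 7 mesenchymal markers, 4 of them above 1 CPM and TWIST1 the highest, was 326 to 342 CPM with EGFP and 250.3 to 276 CPM with OmoMYC. TWIST1 went from 283 ± 10.6 to 211 ± 8.23 CPM, whereas the collagen gene COL1A1 of the same list went from 21.2 ± 3.48 to 31.5 ± 4.43 CPM (SD, n = 3). The sum of immune markers was 1.03 to 1.40 CPM with EGFP, 0.441 to 0.614 CPM with OmoMYC and 1.36 to 1.75 CPM in parental cells. Epithelial markers summed to 0.707 to 1.61 CPM in all libraries except dTAG47 replicate 2, where they reached 6.29 CPM. In that library KRT8, an epithelial keratin, was at 3.75 CPM, against 0.0193 to 0.0796 CPM in the other parental libraries. The dTAG47 fold changes of ST8SIA1, B4GALNT1 and B3GALT4 and the count ratios in parental cells are given with and without this library. In bulk libraries such as these, fewer cells of a type and less RNA per cell cannot be told apart.

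Promoter windows of the genes that opened the branches are shown because A4GALT and ST3GAL5 moved in opposite directions with OmoMYC. They span 250 bases before to 50 bases after an annotated start, were taken from RefSeq (GRCh38.p14), and run 5′ to 3′ on the gene's strand. Capitals mark the GC box GGGCGG or its reverse complement CCGCCC, overlapping matches included.
A4GALT promoter window 1, chr22:42720821-42721120, minus strand: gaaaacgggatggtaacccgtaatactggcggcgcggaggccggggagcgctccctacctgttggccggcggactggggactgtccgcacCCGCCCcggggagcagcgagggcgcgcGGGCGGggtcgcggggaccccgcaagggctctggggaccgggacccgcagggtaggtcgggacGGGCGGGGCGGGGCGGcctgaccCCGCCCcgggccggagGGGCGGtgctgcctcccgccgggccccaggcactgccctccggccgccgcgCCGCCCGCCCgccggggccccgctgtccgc
A4GALT promoter window 2, chr22:42721252-42721551, minus strand: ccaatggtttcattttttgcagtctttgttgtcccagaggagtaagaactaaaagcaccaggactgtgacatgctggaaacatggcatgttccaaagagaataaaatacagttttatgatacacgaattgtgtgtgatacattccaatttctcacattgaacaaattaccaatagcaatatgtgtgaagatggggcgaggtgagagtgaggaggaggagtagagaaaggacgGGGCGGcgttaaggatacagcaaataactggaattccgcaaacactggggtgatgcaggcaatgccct
ST3GAL5 promoter window 1, chr2:85888941-85889240, minus strand: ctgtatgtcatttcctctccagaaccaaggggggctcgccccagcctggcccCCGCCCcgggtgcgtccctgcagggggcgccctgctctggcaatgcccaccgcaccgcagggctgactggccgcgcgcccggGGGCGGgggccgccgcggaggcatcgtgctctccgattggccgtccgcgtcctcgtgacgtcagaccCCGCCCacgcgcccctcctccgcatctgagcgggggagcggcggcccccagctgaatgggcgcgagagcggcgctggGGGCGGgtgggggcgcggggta
The first A4GALT window was 81% GC and held 9 GC boxes, whereas the second was 43.3% GC and held 1. The ST3GAL5 window was 76.3% GC with 4 GC boxes. ST3GAL5 had 5 windows in the table, and the others held 0 to 3 GC boxes. RefSeq windows were matched for 5 members (UGCG, ST3GAL5, ST8SIA1, A4GALT and B3GALNT1), 12 windows in all. B4GALT6, B4GALNT1, B3GALT4, ST3GAL2 and ST8SIA5 were not matched. 8 of the 12 windows held a GC box, against 44.95% of the 35116 windows of all genes. Some ST3GAL5 windows overlap and share GC boxes, so the 12 are not separate sequences. The 12 windows had a median of 69.8% GC, against 58.7% over all windows. What part base content had in the share with a GC box was not tested. The E-box CACGTG, the canonical site of MYC-MAX dimers, was searched on both strands and matched in 0 of the 12 windows, against 7.26% of all windows. That says only that these letters were not in these windows.

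To ask which of these enzymes changed when MYC function was inhibited, OmoMYC libraries were compared with EGFP libraries. The globoside gene A4GALT was almost silent with EGFP and clearly measured with OmoMYC, and the late ganglioside genes ST8SIA5 and ST3GAL2 also rose. ST3GAL5, the entry to the ganglioside branch, fell slightly. Among the GD2 genes, ST8SIA1 was not called in this comparison and B4GALNT1 rose by a small amount, a call that was lost in 5 of 6 fits with 1 library left out. By edgeR's quasi-likelihood test, 4 of the 8 tested members were called higher at a false discovery rate (FDR) below 0.05, beside 27.3% of all genes tested, and 1 was called lower, beside 25.7% of all genes tested. The same 5 members had libraries that did not overlap between groups, beside 62.3% of all genes tested. A4GALT, counted among the 4 and among the 5, entered the test only through its OmoMYC libraries. Its place in these counts is therefore no support for a rise of the members. With so many genes called, these shares describe the members and do not set them apart from other genes. The median log2 fold change of the tested members was 0.24, and that of all genes tested was 0.01.

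**Figure D1:**
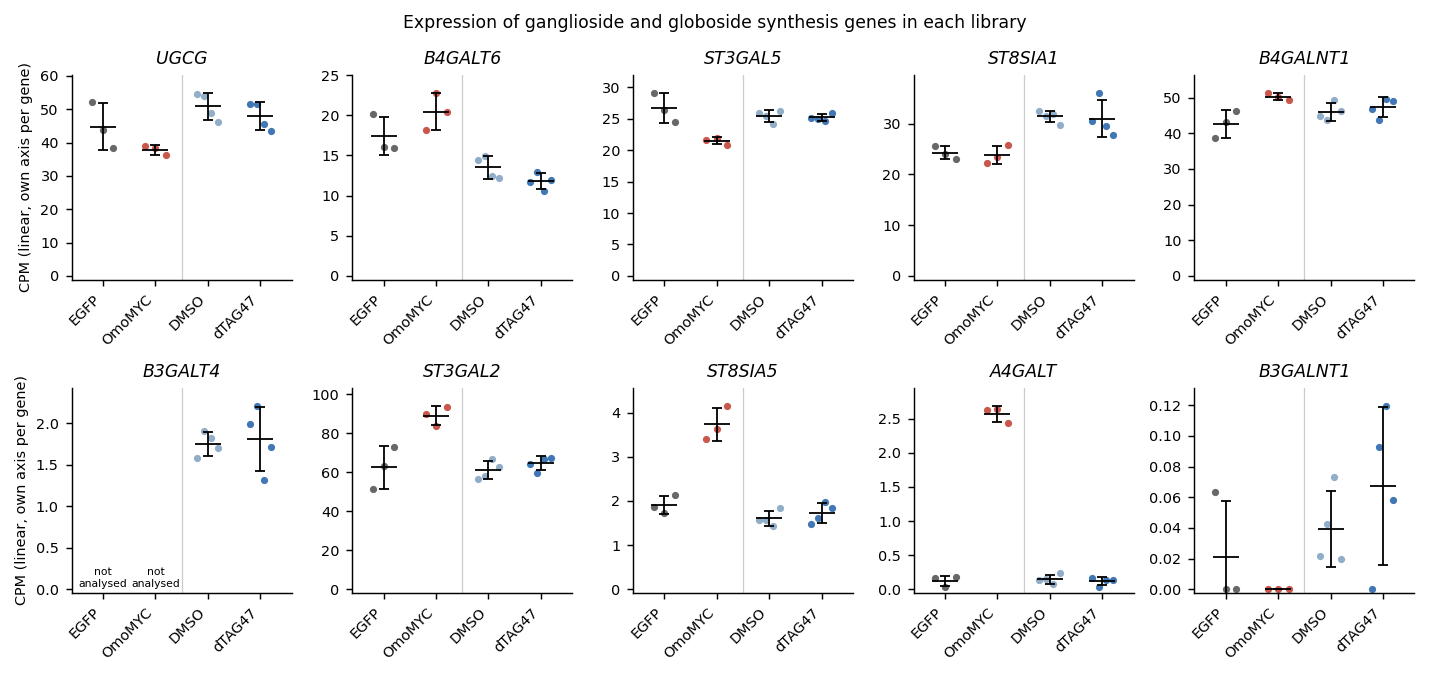
Depth-scaled counts (CPM, linear axes that differ by gene) of the 10 genes in each library of EGFP, OmoMYC, DMSO and dTAG47. Points are libraries, and black lines are the group mean ± SD. The OmoMYC points of A4GALT (2.43 to 2.65 CPM) lie far above all other libraries, and the DMSO and dTAG47 points of each gene overlap. B3GALT4 was analysed in parental cells only.

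A4GALT (chr22:43088127-43117304, minus strand, hg19), the synthase of the globoside Gb3, was at 0.158, 0.0358 and 0.172 CPM in the EGFP libraries and at 2.63, 2.65 and 2.43 CPM in the OmoMYC libraries. These values rest on 5, 1 and 5 counts with EGFP and on 77, 102 and 74 counts with OmoMYC. Every OmoMYC library was thus above every EGFP library. The summed counts, scaled for depth, gave a ratio of 20.8 (95% exact interval 11.4 to 42.1, counting error only), and the fitted log2 fold change was 4.33 (SE 0.31, edgeR adjusted p = 2.67e-06). The gene passed the filter on low counts only through the OmoMYC libraries. Its exons share 74 bases (2.2%) with CYB5R3, a cytochrome b5 reductase gene on the same strand, which averaged 131 ± 21.0 CPM in EGFP libraries and 199 ± 3.15 CPM in OmoMYC libraries (SD, n = 3). What part reads in the shared bases had in the A4GALT counts was not tested.

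B3GALNT1 (chr3:160801671-160823199, minus strand), which extends Gb3 to globoside, had 2, 0 and 0 counts in the EGFP libraries and 0 in each OmoMYC library. A count of 0 over the OmoMYC libraries allows up to 0.0305 CPM. No difference was detectable at this depth, so the gene that follows A4GALT in the branch was at or under the floor in both groups.

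ST3GAL5 (chr2:86064243-86132322, minus strand), the GM3 synthase, was at 29.1, 26.4 and 24.4 CPM with EGFP and at 21.6, 21.98 and 20.9 CPM with OmoMYC. Its OmoMYC libraries were all below its EGFP libraries. The log2 fold change was -0.31 (SE 0.09, edgeR adjusted p = 0.0130). The gene was called lower in each of the 6 fits that left out 1 library, with log2 fold changes from -0.40 to -0.26.

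Among the enzymes of complex gangliosides, ST8SIA5 (chr18:44247784-44339220, minus strand), which adds further sialic acids to complex gangliosides, was at 1.86, 1.72 and 2.13 CPM with EGFP and at 3.41, 3.63 and 4.14 CPM with OmoMYC. All OmoMYC values exceeded all EGFP values, and the log2 fold change was 0.97 (SE 0.16, edgeR adjusted p = 0.000552). ST3GAL2 (chr16:70409880-70473140, minus strand), which caps the chain end with sialic acid, was at 51.2, 63.4 and 73.1 CPM with EGFP and at 89.7, 84.0 and 93.6 CPM with OmoMYC. Here too the groups did not overlap, although the EGFP libraries were spread widely. The log2 fold change of ST3GAL2 was 0.51 (SE 0.11, edgeR adjusted p = 0.00392). ST8SIA5 and ST3GAL2 were called higher in all 6 fits with 1 library left out.

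The GD2 genes moved little. B4GALNT1 (chr12:58017192-58027022, minus strand) was at 38.6, 43.1 and 46.2 CPM with EGFP and at 51.4, 50.2 and 49.4 CPM with OmoMYC. The groups did not overlap, and the log2 fold change was 0.24 (SE 0.08, edgeR adjusted p = 0.0314). The call was lost in 5 of the 6 fits with 1 library left out, whose adjusted p ranged from 0.0110 to 0.132, and was kept only without EGFP replicate 3. B4GALNT1 exons share 2136 bases (27.1%) with SLC26A10P on the opposite strand, counted as SLC26A10 and averaging 3.70 ± 0.445 CPM in EGFP libraries and 3.66 ± 0.479 CPM in OmoMYC libraries (SD, n = 3). The strand setting of the counting is not given in the sources used here. ST8SIA1 (chr12:22216707-22589975, minus strand), the GD3 synthase, was at 25.6, 24.1 and 23.1 CPM with EGFP and at 22.3, 23.4 and 25.7 CPM with OmoMYC. These libraries overlapped, and the log2 fold change was -0.03 (95% interval -0.22 to 0.17, edgeR adjusted p = 0.815).

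The first steps of the pathway were not called. UGCG (chr9:114659094-114697649, plus strand) was at 52.2, 43.8 and 38.4 CPM with EGFP and at 38.9, 38.3 and 36.1 CPM with OmoMYC. EGFP replicate 3 lay within the OmoMYC range, and the log2 fold change was -0.25 (SE 0.11, edgeR adjusted p = 0.0730). Without EGFP replicate 3 UGCG was called lower (log2 fold change -0.38, edgeR adjusted p = 0.00266), and without EGFP replicate 1 its log2 fold change was -0.14 (edgeR adjusted p = 0.138). B4GALT6 (chr18:29202209-29265799, minus strand) was at 20.1, 16.01 and 15.98 CPM with EGFP and at 18.1, 22.8 and 20.4 CPM with OmoMYC. Its groups overlapped through EGFP replicate 1, and the log2 fold change was 0.24 (SE 0.12, edgeR adjusted p = 0.116). Without EGFP replicate 1 B4GALT6 was called higher (log2 fold change 0.34, edgeR adjusted p = 0.00759). With another library left out its log2 fold change was as low as 0.12, without OmoMYC replicate 2 (edgeR adjusted p = 0.496), and it was 0.16 and 0.15 without EGFP replicate 2 or 3.

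**Figure D2:**
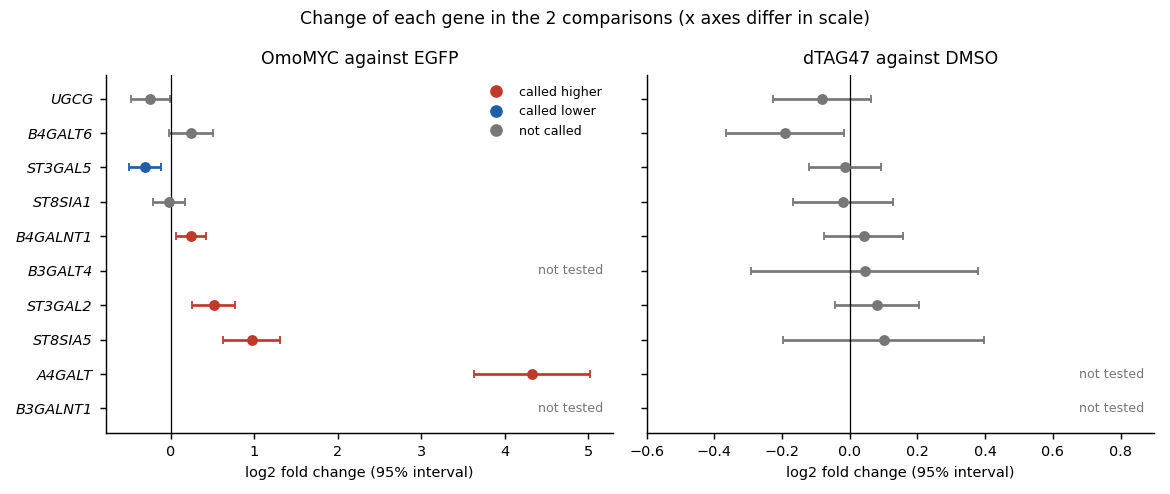
Log2 fold change of each tested gene with its 95% interval from the edgeR fit, for OmoMYC against EGFP (left) and dTAG47 against DMSO (right, on a narrower axis). Red marks genes called higher, blue genes called lower and grey genes not called at an FDR below 0.05. A4GALT at 4.33 stands far from the other genes on the left, and no gene is called on the right.

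To ask whether dTAG47 itself altered these genes in cells without a tagged protein, treated parental cells were compared with DMSO. 0 of the 8 tested members were called by edgeR, beside 0.117% of all genes tested called higher and 0.0415% called lower. DESeq2 also called 0 of them. The libraries of all 8 overlapped, beside 3.34% of all genes tested whose groups did not. B4GALT6 had the only unadjusted p under 0.05. It was at 14.5, 14.96, 12.4 and 12.2 CPM with DMSO and at 11.7, 12.99, 10.6 and 11.996 CPM with dTAG47, with a log2 fold change of -0.19 (SE 0.08, edgeR adjusted p = 0.673). With a factor that separates replicates 1 and 2 from replicates 3 and 4, a split that the labels do not name, 5.49% of all genes tested were called and the adjusted p of B4GALT6 was 0.0577. Within replicates 1 and 2 its log2 fold change was -0.24, and within replicates 3 and 4 it was -0.13.

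UGCG showed the same split in both groups. It was at 54.5, 54.0, 48.8 and 46.1 CPM with DMSO and at 51.7, 51.5, 45.6 and 43.5 CPM with dTAG47, so that replicates 1 and 2 were above replicates 3 and 4 in each. The log2 fold change was -0.08 over all libraries, -0.06 within replicates 1 and 2, and -0.09 within replicates 3 and 4, and none of these was called.

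The GD2 genes did not differ beyond their spread with dTAG47. ST8SIA1 was at 32.5, 31.4, 31.9 and 29.8 CPM with DMSO and at 30.6, 36.1, 29.5 and 27.7 CPM with dTAG47. The highest value belongs to dTAG47 replicate 2, the library with the raised keratin counts, and its part in the result was not tested. The log2 fold change of ST8SIA1 was -0.02 (95% interval -0.17 to 0.13) with that library and -0.10 without it, and neither was called. B4GALNT1 was at 44.8, 43.6, 49.3 and 46.2 CPM with DMSO and at 46.8, 43.7, 49.7 and 49.1 CPM with dTAG47, with a log2 fold change of 0.04 (95% interval -0.08 to 0.16) and of 0.08 without dTAG47 replicate 2.

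ST3GAL5 had one of the narrowest intervals, with 24.2 to 26.3 CPM over the DMSO libraries and 24.7 to 26.0 CPM over the dTAG47 libraries and a log2 fold change of -0.01 (95% interval -0.12 to 0.09). ST3GAL2 ranged from 56.5 to 66.9 CPM with DMSO and from 59.8 to 67.5 CPM with dTAG47 (log2 fold change 0.08, 95% interval -0.04 to 0.20). ST8SIA5 ranged from 1.44 to 1.84 CPM with DMSO and from 1.48 to 1.97 CPM with dTAG47 (log2 fold change 0.10, 95% interval -0.20 to 0.40). The interval of ST8SIA5, with the fewest counts of the 3, was the widest.

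B3GALT4 (chr6:33244900-33252609, plus strand), the synthase of GM1, was at 1.58, 1.91, 1.83 and 1.71 CPM with DMSO and at 2.00, 2.21, 1.31 and 1.72 CPM with dTAG47. Its dTAG47 libraries lay on both sides of the DMSO range, with a log2 fold change of 0.04 (95% interval -0.29 to 0.38) and of -0.07 without dTAG47 replicate 2. A4GALT and B3GALNT1 did not pass the filter on low counts here. A4GALT had 6, 7, 3 and 12 counts with DMSO and 7, 2, 7 and 7 with dTAG47, a depth-scaled ratio of 0.770 (95% exact interval 0.424 to 1.39). B3GALNT1 had 1, 2, 3 and 1 counts with DMSO and 0, 5, 6 and 3 with dTAG47, a ratio of 1.87 (95% exact interval 0.708 to 5.49). Both intervals span equal levels.

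Levels of different genes were compared as CPM per kilobase of annotated exon. UGCG was the most abundant member in the EGFP libraries (9.81 CPM per kilobase), followed by ST3GAL2 at 6.42, B4GALNT1 at 5.40 and B4GALT6 at 3.36. ST3GAL2 and B4GALNT1 overlapped there and were not ordered beyond their spread. ST8SIA1 at 1.68 and ST3GAL5 at 1.64 CPM per kilobase also overlapped, and ST8SIA5 (0.122), A4GALT (0.0363) and B3GALNT1 (0.00269) came last. In the OmoMYC libraries ST3GAL2 led at 9.14 CPM per kilobase, above UGCG at 8.27 and B4GALNT1 at 6.38, and A4GALT at 0.765 stood above ST8SIA5 at 0.238. A4GALT made up 0.128% of the summed level per kilobase of the members with EGFP and 2.41% with OmoMYC.

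In the parental cells UGCG again led, at 11.1 CPM per kilobase with DMSO, and ST3GAL2 at 6.27 and B4GALNT1 at 5.83 followed with overlapping ranges. B4GALT6 was at 2.61, ST8SIA1 at 2.17, ST3GAL5 at 1.56, B3GALT4 at 0.743, ST8SIA5 at 0.103, A4GALT at 0.0435 and B3GALNT1 at 0.00501 CPM per kilobase. With dTAG47 the order was the same, except that B4GALT6 and ST8SIA1, and A4GALT and B3GALNT1, then overlapped. These experiments were scaled separately, so levels in EGFP and DMSO cells stand side by side without a test. ST3GAL5 has 69 annotated transcripts, with 16.3 kilobases of exon in all and 6.18 in the longest transcript. The order of several genes depended on the length used. With the longest transcript as the length, ST3GAL5 ranked above B4GALT6 in the EGFP libraries, with overlapping ranges, at 4.31 CPM per kilobase. With DMSO, ST3GAL5 (4.12) and ST8SIA1 (3.24) then stood above B4GALT6 (2.89), the last pair with overlapping ranges. B4GALNT1 stood above ST3GAL2 without overlap with DMSO (8.25 against 6.89) and with dTAG47 (8.48 against 7.29), and ST3GAL2, UGCG and B4GALNT1 were not ordered beyond their spread in the OmoMYC libraries.

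**Figure D3:**
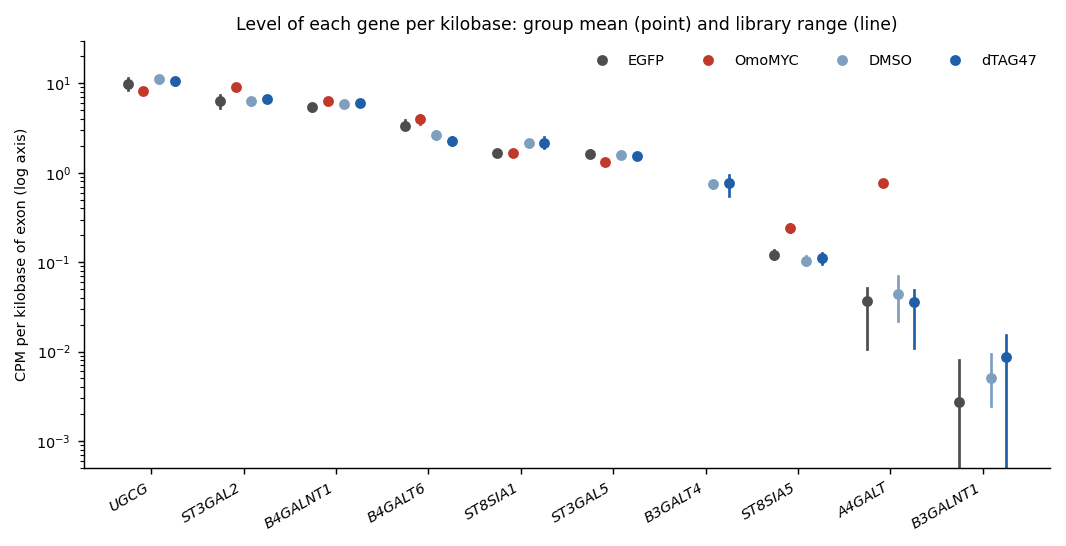
Level of each gene in CPM per kilobase of exon (log axis), with the group mean as a point and the library range as a line. Ranges that reach 0 run to the lower edge of the axis, and B3GALNT1 in OmoMYC, at 0 in all libraries, has no point. UGCG, ST3GAL2 and B4GALNT1 lie at the top in all 4 groups, and the OmoMYC point of A4GALT at 0.765 lies above its other points.

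Ratios of counts within a library do not depend on the scaling between libraries and describe the balance at branch points. They are not divided by exon length, so a ratio does not compare the levels of its genes per kilobase. The log2 ratio of ST3GAL5 to A4GALT was 7.53, 9.53 and 7.15 with EGFP and 3.04, 3.05 and 3.10 with OmoMYC. These did not overlap, and the means were 8.07 with EGFP and 3.06 with OmoMYC, although ST3GAL5 counts still exceeded A4GALT counts in every library. Per kilobase of exon, ST3GAL5 was at 1.32 and A4GALT at 0.765 CPM with OmoMYC. The highest EGFP ratio rests on 1 A4GALT count. In the parental cells the ratio was 7.56 ± 0.640 with DMSO and 7.93 ± 0.990 with dTAG47 (SD, n = 4), and the groups overlapped. The higher dTAG47 mean rests on replicate 2, with 2 A4GALT counts, and without that library it was 7.44 ± 0.169 (SD, n = 3), below the DMSO mean.

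The log2 ratio of ST8SIA1 to B4GALNT1, the GD2 genes, was -0.59, -0.84 and -1 with EGFP and -1.20, -1.10 and -0.94 with OmoMYC. The groups overlapped, with ST8SIA1 counts below B4GALNT1 counts in every library. In the parental cells it was -0.55 ± 0.0943 with DMSO and -0.62 ± 0.244 with dTAG47 (SD, n = 4), and -0.73 ± 0.108 without dTAG47 replicate 2 (SD, n = 3). B4GALT6 counts, not divided by exon length, were far below those of B4GALT5, the other lactosylceramide synthase. B4GALT5 averaged 180 ± 7.71 CPM in EGFP libraries and 269 ± 2.86 CPM in OmoMYC libraries (SD, n = 3). The log2 ratio of B4GALT6 to B4GALT5 was -3.09, -3.51 and -3.54 with EGFP and -3.90, -3.55 and -3.73 with OmoMYC. These groups did not overlap, by a margin of less than 0.01 between the closest libraries, and the DMSO and dTAG47 ratios overlapped. Without dTAG47 replicate 2 the parental groups did not overlap, at -4.02 with DMSO and -4.37 with dTAG47. The ratio of that library, -4.14, lay within the DMSO values of -4.17 to -3.84, so the separation came from leaving it out. It was left out for its keratin counts, after the data were seen, and the ratios were not tested.

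**Figure D4:**
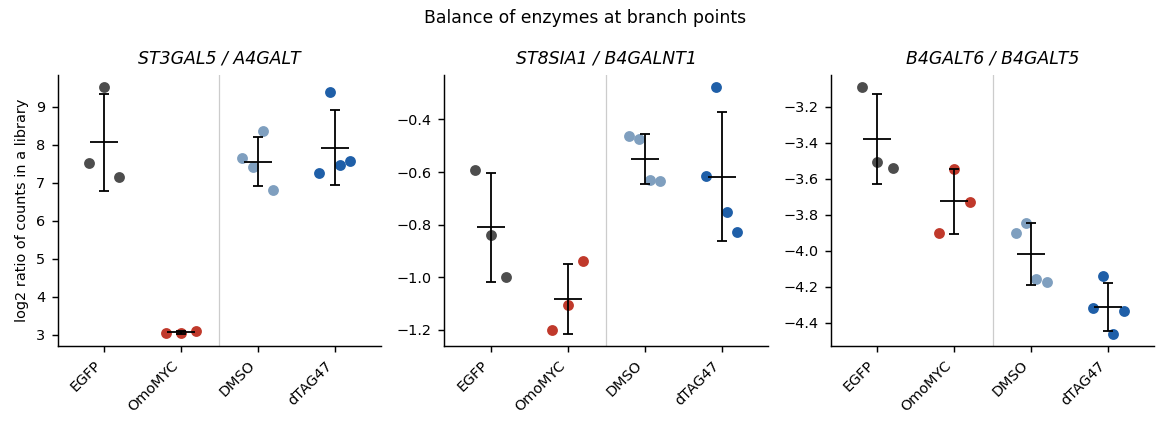
Log2 ratio of counts within each library for ST3GAL5 to A4GALT, ST8SIA1 to B4GALNT1 and B4GALT6 to B4GALT5, with the mean ± SD in black. The ST3GAL5 to A4GALT ratio of the OmoMYC libraries (3.04 to 3.10) lies below all other libraries, and dTAG47 replicate 2 has the highest parental value at 9.40.

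The surrounding pathway was followed through 6 lists of genes, with 71 genes tested between OmoMYC and EGFP cells. 21 were called higher and 17 lower by edgeR, and their median change was -0.03 on the log2 scale. These shares, 29.6% and 23.9%, were close to the 27.3% and 25.7% of all genes tested. Of 14 tested genes of ceramide synthesis, 3 were called higher and 4 lower, with a median of -0.05. ORMDL3, a subunit that restrains serine palmitoyltransferase, rose from 59.5 ± 6.11 to 172 ± 7.63 CPM (SD, n = 3), with a log2 fold change of 1.53 (SE 0.09, edgeR adjusted p = 3.65e-07). CERS1, a ceramide synthase of neurons, rose by 0.77 on the log2 scale. ORMDL1, a relative of ORMDL3, went the other way at -0.49, and KDSR, the reductase of the second step, was at -0.37, both called lower.

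Of 13 tested genes for other fates and transport of ceramide, 3 were called higher and 3 lower (23.1% each, median -0.22). Over all genes tested, 27.3% were called higher and 25.7% lower. GAL3ST1, the sulfotransferase of sulfatide synthesis, rose from 0.399 ± 0.149 to 2.23 ± 0.494 CPM (SD, n = 3, log2 fold change 2.48). By its EGFP libraries alone, as low as 0.252 CPM, GAL3ST1 would not have passed the filter on low counts. It entered the test through its OmoMYC libraries and was not tested in parental cells. Its place among the genes called higher is therefore no support for a rise of the list genes. GLTPD1, a ceramide-1-phosphate transfer protein, rose by 0.49 on the log2 scale. SGMS2, a sphingomyelin synthase, fell from 2.82 ± 0.601 to 1.08 ± 0.0996 CPM (SD, n = 3, log2 fold change -1.37). PLEKHA8, a glucosylceramide carrier, was lower at -0.26, a call lost without OmoMYC replicate 1 or without OmoMYC replicate 3 (edgeR adjusted p = 0.0651 and 0.0663).

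Of 13 tested genes for other glycolipid glycosyltransferases and their modifiers, 5 were called higher and 4 lower (38.5% and 30.8%, median 0.03). The shares over all genes tested were 27.3% and 25.7%. The sialyltransferases ST3GAL3 and ST6GALNAC4 rose, with log2 fold changes of 1.03 and 0.72. ST3GAL1, a relative of ST3GAL2, fell with a log2 fold change of -0.56, and B3GNT5, which opens the lacto branch from the same lactosylceramide, fell with -0.68. B4GALT5 was also called higher, with a log2 fold change of 0.58. The sialyltransferases thus included genes called in each direction.

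Of 13 tested genes for sialic acid and sugar nucleotide supply, 1 was called higher and 5 lower (7.69% and 38.5%, median -0.20). The shares over all genes tested were 27.3% higher and 25.7% lower, and the lists were not tested as sets. GNPNAT1 and UAP1, which act in UDP-N-acetylglucosamine synthesis, fell, with log2 fold changes of -0.64 and -0.53. Of 15 tested genes for lysosomal breakdown, 7 were called higher and 1 lower (46.7% and 6.67%, median 0.23), beside 27.3% and 25.7% of all genes tested. SMPD1, the acid sphingomyelinase, rose from 7.37 ± 1.21 to 19.1 ± 0.410 CPM (SD, n = 3, log2 fold change 1.38), and ARSA, the arylsulfatase that degrades sulfatide, rose with 1.04. Of 3 tested genes among the polysialyltransferases and NCAM1, their main carrier, 2 were called higher and 0 lower. These shares, 66.7% and 0%, stand beside the same 27.3% and 25.7%. The tested NCAM1 entry was not called (log2 fold change 0.30, edgeR adjusted p = 0.0691). ST8SIA4 rose with a log2 fold change of 1.00. ST8SIA2 was called higher at 0.22 (edgeR adjusted p = 0.0425), a call lost in 5 of 6 fits with 1 library left out and kept only without EGFP replicate 3.

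Some list symbols had far fewer counts in the engineered table than in the parental table. NCAM1 was at 9.81 CPM under one identifier and 0.0315 CPM under another with EGFP. With DMSO the latter identifier was at 378 CPM. NEU1, the lysosomal sialidase, was at 0.147 CPM with EGFP and at 21.96 CPM with DMSO. These NEU1 values belong to different identifiers, so they do not compare the same entry. 538 identifiers shared their symbol with another in the engineered table and 82 in the parental table, and 0 members did so in either. The part of this in the list counts was not tested.

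**Figure D5:**
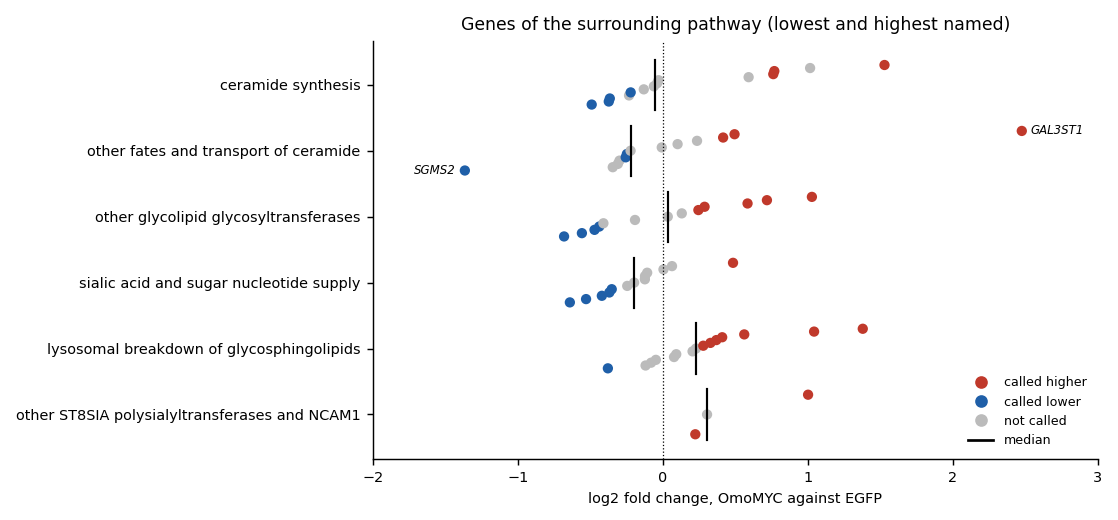
Log2 fold change, OmoMYC against EGFP, of the tested genes of 6 lists around the pathway. Points are genes, red called higher, blue called lower and grey not called at an FDR below 0.05, and black lines are list medians (-0.22 to 0.30). The lowest and highest gene of all are named, SGMS2 at -1.37 and GAL3ST1 at 2.48. GAL3ST1 entered the test through its OmoMYC libraries.

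With dTAG47 0 of 73 tested list genes were called by edgeR or by DESeq2, and 4 had an unadjusted edgeR p under 0.05, beside 7.28% of all genes tested. The median log2 fold change was -0.01, beside -0.0018 over all genes tested. With the factor that separates replicates 1 and 2 from 3 and 4, 2 list genes were called higher and 2 lower, and B4GALT5 was among those higher, at a log2 fold change of 0.10 (edgeR adjusted p = 0.0207). These 4 of 73 genes were about the same share as the 5.49% of all genes called with that factor.

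The genes most like the GD2 genes across libraries were named by the Pearson correlation of log2 CPM over the 14 libraries, centred within each experiment, among 13424 genes tested in both tables. For ST8SIA1 these were ZNRF2 (r = 0.894), FZD6 (r = 0.884) and KCNAB1 (r = 0.862). For B4GALNT1 they were GLTPD1 (r = 0.98), ERGIC1 (r = 0.977) and MLF2 (r = 0.974). Centring within an experiment leaves the difference between its groups in r, as with B4GALNT1 and GLTPD1, both called higher with OmoMYC. These correlations include dTAG47 replicate 2, which held the highest ST8SIA1 value of the parental cells, and its part in r was not tested. The values are descriptions of likeness only.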

How the data were processed

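Gene counts came from rRNA-depleted total RNA of 14 CHP-134 libraries. The deposited counts are unnormalized reads per gene that the authors made by trimming with Cutadapt, aligning to hg19 with STAR and counting with featureCounts. Tool versions, annotation and strand setting are not given in the sources used here. Each table was tested alone. Genes were filtered with filterByExpr, scaled by TMM and tested with edgeR 4.0.16 (robust quasi-likelihood, Benjamini-Hochberg FDR below 0.05, R 4.3.3), without covariates. DESeq2 1.42.0 was an alternative. CPM values use TMM-scaled library sizes. Exon lengths and hg19 coordinates came from GENCODE (GRCh37). Both tools were first run on simulated counts with known changes. Depths were 28060817 to 53451641 counts, and intervals from counts cover counting error only. The study's methods call the replicates biological, and the labels do not say how cultures were kept apart. P-values measure the spread between these libraries.

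The members and lists were chosen with earlier results of these data known. All 10 members are named. Each list gives up to 2 called genes per direction, those with the greatest change, if they averaged 1 CPM or more and their groups did not overlap. B4GALT5 is named as the denominator of a ratio, NCAM1 and NEU1 after their values were seen. A few list genes and markers that this rule covers are not reported here. The 3 genes most like ST8SIA1 and B4GALNT1 are named too. Promoter sequences are from RefSeq.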

Additional observations from a re-analysis of the deposited data

Results flagged for a closer look

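In 1 of the 23 sets of 4 libraries examined for a single library far from the rest, the gap was large. The log2 ratio of ST3GAL5 to A4GALT was 9.40 in dTAG47 replicate 2, against 7.25, 7.47 and 7.59 in the other dTAG47 libraries, with a gap of 0.845 of the whole range, above Dixon's limit for 4 libraries. The value rests on 2 A4GALT counts. Chance alone would mark about 1 in 20 such sets. Groups of 3 libraries were not examined.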

How the results depend on the processing

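A4GALT, ST8SIA5, ST3GAL2 and ST3GAL5 kept their calls between OmoMYC and EGFP under every alternative that gave a value (DESeq2, other scaling, no filter, a minimum of 10 counts, a replicate block and each library left out), except that A4GALT had no value with 10 counts required in every library. Members called lower were 2 with DESeq2, 2 with the replicate block and 1 to 2 with 1 library left out, the added gene being UGCG (adjusted p 0.0485, 0.0193 and, without EGFP replicate 3, 0.00266). ST8SIA1 ranged from -0.12 to 0.016 with 1 library left out. With dTAG47, 0 members were called under any alternative, but the genes called among all (23) became 59 with DESeq2, 668 with the replicate block, 794 with the factor for replicates 1 and 2 against 3 and 4, 7 in replicates 1 and 2 only, 896 in replicates 3 and 4 only and 6 to 84 with 1 library left out. List genes called higher were 1 with the replicate block, 2 with the factor and 2 in replicates 3 and 4 only, and those called lower were 3, 2 and 5. Uncalled log2 fold changes turned sign: with 1 library left out, ST3GAL5 ranged from -0.037 to 0.0058, ST8SIA1 from -0.10 to 0.032 and B3GALT4 from -0.074 to 0.17. ST8SIA1 was 0.073 and ST8SIA5 -0.010 in replicates 1 and 2 only, and B3GALT4 was -0.22 in replicates 3 and 4 only. The cause was not tested. Same-numbered replicates deviated together with r from -0.0697 to 0.293 (engineered) and 0.0093 to 0.159 (parental). Differently numbered engineered pairs had r from -0.291 to 0.252. Differently numbered parental pairs had r from 0.0843 to 0.247 within replicates 1 and 2 or within 3 and 4. Across that split r was -0.226 to -0.0191. The numbers were therefore not taken to pair libraries, and the main parental test has no term for the split. The alternatives for list genes and for ratios without dTAG47 replicate 2 were added after seeing the data. Counts under about 10 limit B3GALNT1 in every group and A4GALT outside the OmoMYC libraries.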
